A study of Homo sapiens with 6 samples.

Results

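Hippo pathway genes and their YAP/TEAD target genes were described in 6 RNA-seq libraries of A375, an established human melanoma cell line. The members were 40 genes chosen by name, namely 29 regulators (the co-activators, DNA-binding factors, kinases, adaptors and junction proteins of the pathway) and 11 target genes, out of 20851 genes listed in the deposited table. All 40 were listed, and all 40 passed the filter on low counts. Of the 6 libraries, 3 came from A375neg cells, which carry the CRISPR/Cas9 system with a nontargeting guide and are labelled as a GFP control, and 3 from A375RIPK4.KO cells, in which the kinase gene RIPK4 was targeted with the same system. Both sublines were grown untreated in serum-containing medium. The A375RIPK4.KO cells are clone #1, so the loss of RIPK4 and the properties of 1 clone cannot be told apart.

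The Hippo pathway relays cell density, junctions, attachment and tension to gene expression. Upstream proteins at the junctions and cortex activate the MST kinases (STK3 and STK4), which with the scaffold SAV1 and the MOB1 adaptors switch on the LATS kinases, and these phosphorylate YAP1 and its relative TAZ (the product of WWTR1) and hold them out of the nucleus. In the nucleus YAP1 and TAZ bind the TEAD factors and drive genes such as CCN1, CCN2 and ANKRD1. Much of this control is on phosphorylation, which mRNA counts do not measure.

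The promoters of the most changed target genes are shown first, with the matches to the recognition motifs of TEAD and AP-1 factors that they hold. The motif searched was GGAATG on both strands, in the 250 bases before each annotated start (RefSeq, GRCh38.p14). It was found in 11.9% of 35116 promoters. Of the members, 31 had a promoter in the table, and the motif was in those of 5 of 24 regulators (YAP1, WWC2, PTPN14, AMOTL2 and AJUBA) and 3 of 7 targets (CCN2, ANKRD1 and TGFB2). Some genes have several promoters, and counted per promoter the motif was in 5 of 38 (13.2%) of the regulators and in 3 of 7 (42.9%) of the targets. The targets were chosen as known YAP/TEAD targets and their promoters are few, so this share is a description and was not tested. TGFB2, which has the motif, was not called as changed. CCN2 had 3 matches, which begin 169, 104 and 95 bases before the start. ANKRD1 had 2, at 220 and 128 bases. Of its 250 bases 189 are annotated as exon, so the stretch printed below holds the match at 220 bases and not the other. F3, NT5E and FJX1 had no TEAD match. CCN1 was among the members without a promoter in the table, so it was not searched. In YAP1 and AJUBA the promoter with the match lay wholly in annotated exon. The AP-1 motif TGANTCA, in 6.57% of promoters and in no case overlapping a TEAD match here, was found 2 times in F3, at 223 and 210 bases, and 1 time each in ANKRD1, LATS1 and MOB1B, at 195, 245 and 44 bases. Below, bases annotated as exon in GENCODE 29 are left out, all 3 promoters are on the minus strand and are written 5′ to 3′ in the direction of the gene, and capitals mark TEAD motifs in CCN2 and ANKRD1 and AP-1 motifs in F3. A match is a run of letters and not a measured binding site.
CCN2, chr6:131951374-131951622: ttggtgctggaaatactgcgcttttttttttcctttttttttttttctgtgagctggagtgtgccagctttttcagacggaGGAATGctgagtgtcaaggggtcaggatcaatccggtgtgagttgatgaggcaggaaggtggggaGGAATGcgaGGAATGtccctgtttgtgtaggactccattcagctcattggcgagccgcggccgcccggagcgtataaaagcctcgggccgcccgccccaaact
ANKRD1, chr10:90921277-90921337: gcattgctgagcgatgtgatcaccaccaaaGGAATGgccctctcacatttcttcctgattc
F3, chr1:94541801-94542009: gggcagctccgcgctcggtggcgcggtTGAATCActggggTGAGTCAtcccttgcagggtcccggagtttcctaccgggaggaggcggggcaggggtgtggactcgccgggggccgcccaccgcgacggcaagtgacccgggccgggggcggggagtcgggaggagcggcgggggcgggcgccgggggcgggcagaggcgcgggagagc

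The libraries held 21882863 to 26694140 counts in genes, so that a count of 0 allows up to 3 counts, or 0.112 to 0.137 CPM, counting error only. Values below are normalized counts, that is raw counts divided by the TMM-scaled library size relative to the mean, and a change was called where the Benjamini-Hochberg adjusted p of edgeR's quasi-likelihood test, taken over all 14443 genes tested, was under 0.05. RIPK4 itself, the targeted gene, had 319, 339 and 383 normalized counts in A375neg and 45.9, 53.2 and 61.8 in A375RIPK4.KO, a log2 fold change of -2.69 ± 0.17 (SE, adjusted p = 1.01e-05). Of 8 melanocytic markers sought, SOX10, MITF, PMEL and S100B were listed, and MLANA, TYR, DCT and PRAME were not. The 4 listed summed to 386 to 417 CPM in A375neg and 317.7 to 358 CPM in A375RIPK4.KO, most of it SOX10. PMEL had at most 22 counts in any library, and MITF and S100B fell (adjusted p = 0.0449 and 0.036). MITF was not called without the filter on low counts (0.0518) or without any single library except A375neg replicate 2 (0.0571 to 0.154), and S100B was not called without A375neg replicates 2 or 3 or A375RIPK4.KO replicates 1 or 3 (0.0785 to 0.126). Of 4 leukocyte markers sought, only PTPRC and CD68 were listed. They summed to 42.3 to 48.5 and 48.5 to 49.1 CPM, of which PTPRC gave at most 3 counts in any library. The 3 endothelial markers summed to 1.31 to 1.47 and 0.25 to 0.503 CPM, the 3 keratinocyte markers, nearly all KRT14, to 19.2 to 23.2 and 5.9 to 6.68 CPM, and the 3 fibroblast markers to 4.01 to 5.32 and 4.17 to 5.07 CPM. KRT14 and the endothelial PECAM1 fell (adjusted p = 3.46e-05 and 0.00556). Their part in the results was not tested. A375RIPK4.KO replicate 2 stood apart from the other libraries: its counts ran lower for longer genes (Spearman's correlation of its deviation from the group mean with exon length -0.34 across 13335 genes, against 0.26 and 0.22 in replicates 1 and 3 and -0.13 to 0.08 in A375neg). Deviations are from the mean of the 3 libraries of a group, so their signs are tied to each other. Replicate 2 was the lowest A375RIPK4.KO library for 27 of the 40 members, and the share over all genes was not counted.

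The 11 target members were higher in A375RIPK4.KO more often than lower. Of 13 further targets, given below, 3 rose and 2 fell. Members and further lists were chosen with earlier results of these data known. Their shares beside those of all genes, here and below, are therefore a description and not a test. Of the 11 targets, 6 rose (CCN2, ANKRD1, F3, CCN1, FJX1 and NT5E), none fell and 5 did not pass the test. That is 54.5% called, where 16.6% of all genes tested were called in either direction and 8.4% were called as higher. The median log2 fold change of the 11 was 0.49, that of all genes tested -0.0047. With a fold change of at least 1.5 also required, 5 remained, all except NT5E, against 4.39% of all genes as higher. Without any overlap between the 3 and 3 libraries, 8 targets were higher and 1 was lower, where 18.7% and 17.8% of all genes were. The 6 calls stood in every alternative fit run, including the one with the trend on gene length removed and each library left out. The block itself was a choice. With the feedback genes LATS2, AMOTL2, PTPN14 and AJUBA counted as targets and not as regulators, 7 of 15 were called, 6 higher and 1 (AJUBA) lower.

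CCN2 encodes a secreted matricellular protein, also known as CTGF, and is the most widely used reporter of YAP activity. Its gene lies on chromosome 6 from 131948176 to 131951372. CCN2 had 2736, 2406 and 2408 normalized counts in A375neg and 9024, 8093 and 8826 in A375RIPK4.KO. Every knockout library was therefore far above every control library, and the log2 fold change was 1.78 ± 0.076 (SE, adjusted p = 1.18e-06), or 3.44-fold. Its relative CCN1 (CYR61), on chromosome 1 from 85580761 to 85583950, had 4596, 4298 and 3876 normalized counts in A375neg and 7932, 8246 and 8334 in A375RIPK4.KO. The groups did not overlap here either, and the log2 fold change was 0.94 ± 0.073 (SE, adjusted p = 4.06e-05). On the scale of normalized counts per kb of exon, CCN1 stood above CCN2 in A375neg (1734 ± 148 against 1076 ± 81.1, SD, n = 3) and below it in A375RIPK4.KO (3328 ± 86.1 against 3697 ± 209.8, SD, n = 3). These per-kb levels are a description, and the change of order was not tested.

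ANKRD1, on chromosome 10 from 90912096 to 90921087, encodes an ankyrin repeat protein first known from muscle. It had 218, 224 and 184 normalized counts in A375neg and 624, 620 and 690 in A375RIPK4.KO. The libraries of the groups were well apart, with a log2 fold change of 1.63 ± 0.11 (SE, adjusted p = 1.61e-05), or 3.09-fold.

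F3 encodes tissue factor, the cell surface trigger of blood clotting, and lies on chromosome 1 from 94529173 to 94541759. It had 247, 243 and 262 normalized counts in A375neg and 576, 471 and 619 in A375RIPK4.KO. The lowest knockout library, replicate 2, was still above every control library, and the log2 fold change was 1.15 ± 0.12 (SE, adjusted p = 0.000224). FJX1, a single-exon homologue of the fly planar polarity gene four-jointed on chromosome 11 from 35618460 to 35620865, had 1035, 1075 and 1105 normalized counts in A375neg and 1632, 1826 and 1836 in A375RIPK4.KO. Again no library of one group reached the other, and the log2 fold change was 0.72 ± 0.07 (SE, adjusted p = 0.000153). NT5E, which encodes CD73, the enzyme that makes extracellular adenosine, rose least of the called targets, with a log2 fold change of 0.34 ± 0.058 (SE, adjusted p = 0.00381). NT5E is also in a gene panel that the study drew from these libraries, so its direction is not independent evidence.

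**Figure D1:**
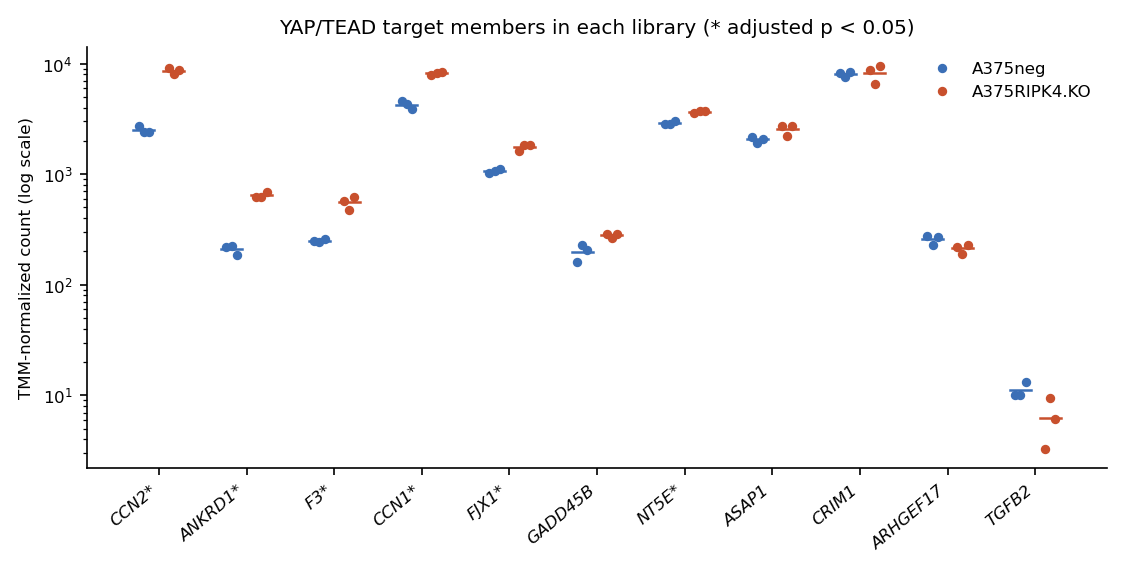
Normalized counts of the 11 target members (log axis) in each of 3 A375neg (blue) and 3 A375RIPK4.KO (red) libraries, with a short line at each group mean and an asterisk at an adjusted p under 0.05. CCN2 and ANKRD1 are the farthest apart, NT5E is higher by a small step, and TGFB2 lies at 3.28 to 13.3 normalized counts.

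Of the 5 targets that did not pass, GADD45B, a stress-induced growth arrest gene, came close. It had 162, 230 and 206 normalized counts in A375neg and 291, 266 and 285 in A375RIPK4.KO. The groups did not overlap, but the A375neg libraries were spread, and the log2 fold change of 0.49 ± 0.15 (SE) had an adjusted p of 0.057, which was 0.0366 with DESeq2 and 0.0495 without A375RIPK4.KO replicate 2. ASAP1, which encodes an ARF GTPase-activating protein, had 2172, 1918 and 2085 normalized counts in A375neg and 2717, 2195 and 2739 in A375RIPK4.KO. Replicate 2 alone was near the controls, and the log2 fold change of 0.31 ± 0.094 (SE) had an adjusted p of 0.0533, against 0.000894 without that library, 0.0167 with DESeq2, 0.044 without the filter on low counts and 0.0127 with the length trend removed.

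The remaining targets were close to the noise of the libraries. CRIM1, which encodes a membrane protein that binds BMPs, was abundant in both groups, with 7634 to 8469 normalized counts in A375neg and 6536 to 9472 in A375RIPK4.KO, where replicate 2 was the lowest. Its log2 fold change was 0.03 (95% interval -0.25 to 0.31). ARHGEF17, a guanine nucleotide exchange factor gene, had a log2 fold change of -0.27 (95% interval -0.59 to 0.044). TGFB2, which encodes a TGF-beta ligand, had 10, 10.1 and 13.3 normalized counts in A375neg and 3.28, 9.39 and 6.08 in A375RIPK4.KO. At this depth a difference in TGFB2 was not detectable, with a log2 fold change of -0.81 ± 0.51 (SE, adjusted p = 0.333). The called targets had shorter exons, with a median of 2.45 kb, than those not called, with a median of 7.12 kb, and the median of all genes tested was 5.01 kb.

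The co-activators and their DNA-binding partners did not pass the test. YAP1 had 4218, 3989 and 4264 normalized counts in A375neg and 3890, 3304 and 3855 in A375RIPK4.KO. The knockout libraries were all slightly lower, with a log2 fold change of -0.17 ± 0.075 (SE, adjusted p = 0.157). WWTR1 had 13890, 14858 and 14942 normalized counts in A375neg and 14111, 13667 and 15001 in A375RIPK4.KO. These interleave, and the 95% interval of the log2 fold change ran from -0.18 to 0.11. Per kb of exon, YAP1 made up 27.6% ± 1.23 (SD, n = 3) of the summed YAP1 and WWTR1 level in A375neg and 25.6% ± 1.25 (SD, n = 3) in A375RIPK4.KO, so WWTR1 was the more abundant co-activator mRNA in both sublines.

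TEAD4 was the most abundant of the TEAD genes per kb of exon, at 66.7% ± 0.429 (SD, n = 3) of their summed level in A375neg and 69% ± 3.71 (SD, n = 3) in A375RIPK4.KO, followed by TEAD1, TEAD2 and TEAD3. In mean normalized counts TEAD1 stood above TEAD4, at 2966 against 2044 in A375neg and 2920 against 2398 in A375RIPK4.KO. The order of these 2 genes thus rests on their exon lengths, 10.3 kb for TEAD1 and 2.27 kb for TEAD4. In A375neg the neighbours TEAD2 and TEAD3 made up 6.69% to 6.78% and 4.41% to 5.88% of the sum, which do not overlap. TEAD2 had 279, 277 and 254 normalized counts in A375neg and 318, 398 and 343 in A375RIPK4.KO. It was higher in all 3 knockout libraries, but its log2 fold change of 0.39 ± 0.12 (SE) had an adjusted p of 0.0606, and passed only with the length trend removed (adjusted p = 0.0428). TEAD4 had 2110, 2097 and 1926 normalized counts in A375neg and 2359, 2695 and 2139 in A375RIPK4.KO, with a log2 fold change of 0.23 ± 0.088 (SE, adjusted p = 0.115). TEAD1 and TEAD3 overlapped between the groups, and their log2 fold changes of -0.023 and -0.038 turned sign under some alternatives.

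The VGLL proteins are TEAD cofactors, of which VGLL4 competes with YAP for the TEAD factors. VGLL3 had 99, 103 and 112 normalized counts in A375neg and 218, 135 and 208 in A375RIPK4.KO. It rose, with replicate 2 nearest to the controls and a log2 fold change of 0.83 ± 0.20 (SE, adjusted p = 0.0228). This call was lost without any single library except A375RIPK4.KO replicate 2, at adjusted p between 0.0575 and 0.0831, and the adjusted p was 0.00147 without that replicate. VGLL4 had a log2 fold change of -0.20 ± 0.083 (SE, adjusted p = 0.145). It overlaps ATG7 on the other strand, whose counts came to 92.1% of its own, and the strand setting of the counting is not given in the sources used here, so its value is uncertain.

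**Figure D2:**
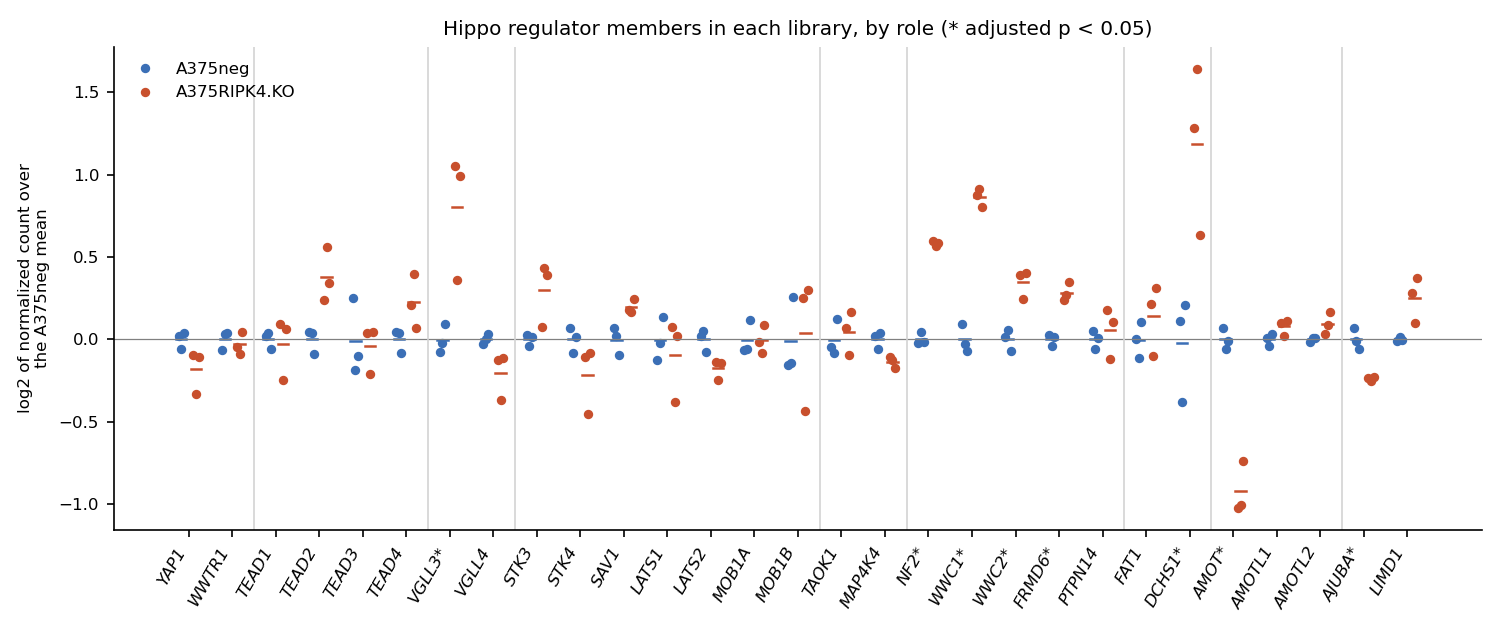
Log2 ratio of each library's normalized count to the A375neg mean for the 29 regulator members, grouped by role, with 3 A375neg (blue) and 3 A375RIPK4.KO (red) libraries, a short line at the mean of each group's log2 ratios and an asterisk at an adjusted p under 0.05. The adaptors NF2, WWC1, WWC2 and FRMD6 lie above the controls and AMOT lies below them, while A375RIPK4.KO replicate 2 is the low point for many others.

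Over the regulators as a whole, 8 of 29 passed the test, 6 higher (NF2, WWC1, WWC2, FRMD6, VGLL3 and DCHS1) and 2 lower (AMOT and AJUBA). That is 27.6%, against 16.6% of all genes tested, of which 8.4% were higher and 8.24% lower, and the median log2 fold change was 0.076. With 1.5-fold also required, 4 regulators (VGLL3, WWC1, DCHS1 and AMOT) remained, 3 higher and 1 lower, where 9.04% of all genes did (4.39% higher and 4.65% lower). The groups did not overlap for 18 regulators (62.1%), 12 of them higher and 6 lower, against 36.5% of all genes. The count of 8 depended on single libraries, falling to 4 without A375neg replicate 2 and to 5 without A375neg replicate 1, and NF2, WWC1, WWC2 and AMOT were called in every alternative fit.

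Among the upstream adaptors 4 of 5 rose, which is 4 of the 8 called regulators, where 8.4% of all genes tested were called as higher. Of 7 further upstream adaptors tested that are not members, 3 rose (WTIP, PALS1 and DLG1). The log2 fold change was above 0 for 5 of those 7 and below 0 for 2. WTIP is a gene of the Ajuba family, whose members AJUBA (lower) and LIMD1 (not called) are counted apart as LIM adaptors. The count of adaptors that rose therefore depends on how this family is classed. NF2 encodes merlin, a cortical tumour suppressor that recruits LATS kinases to the membrane, and lies on chromosome 22 from 29603556 to 29698600. NF2 had 3981, 4165 and 3998 normalized counts in A375neg and 6127, 5992 and 6074 in A375RIPK4.KO. Both groups were tight and far from each other, and the log2 fold change was 0.58 ± 0.055 (SE, adjusted p = 0.000125), or 1.498-fold, just under the 1.5-fold limit.

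WWC1 (KIBRA) and WWC2 encode scaffold proteins that work with merlin and LATS. WWC1, on chromosome 5 from 168291645 to 168472303, had 904, 833 and 809 normalized counts in A375neg and 1559, 1596 and 1482 in A375RIPK4.KO. The knockout libraries were all well above the controls, with a log2 fold change of 0.87 ± 0.07 (SE, adjusted p = 5.46e-05). WWC2, on chromosome 4 from 183099257 to 183320777, had 2085, 2145 and 1963 normalized counts in A375neg and 2701, 2450 and 2734 in A375RIPK4.KO. Its step was smaller but again without overlap, with a log2 fold change of 0.35 ± 0.067 (SE, adjusted p = 0.00728). Per kb of exon the summed level of both genes was 291.3 ± 12.2 (SD, n = 3) in A375neg and 417.1 ± 11.4 (SD, n = 3) in A375RIPK4.KO, and the share of WWC1 in it was 28.9% and 36.8%.

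FRMD6 (Willin), a FERM domain protein gene on chromosome 14 from 51396431 to 51730727, had 2360, 2252 and 2343 normalized counts in A375neg and 2737, 2789 and 2945 in A375RIPK4.KO. All 3 knockout libraries were higher, with a log2 fold change of 0.28 ± 0.059 (SE, adjusted p = 0.0101), and the call was lost without A375neg replicate 2 (adjusted p = 0.0615). The fifth adaptor, PTPN14, a phosphatase gene whose product binds YAP, had a log2 fold change of 0.06 with a 95% interval from -0.13 to 0.25.

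The core kinase module had no called member among 7, where 16.6% of all genes tested were called. With 7 genes this count is not read as a difference from that share. STK3 had 1326, 1266 and 1313 normalized counts in A375neg and 1370, 1754 and 1707 in A375RIPK4.KO. Replicate 1 of the knockout was close to the controls and the others were higher, and the log2 fold change of 0.31 ± 0.094 (SE) had an adjusted p of 0.0548, which was 0.00519 without that library and 0.0259 with DESeq2. Its paralogue STK4 had a log2 fold change of -0.21 ± 0.1 (SE, adjusted p = 0.206). Per kb of exon STK3 made up 29.9% ± 0.64 (SD, n = 3) of the pair in A375neg and 37.9% ± 5.77 (SD, n = 3) in A375RIPK4.KO, where its share was 32.5%, 44% and 37.2% in replicates 1 to 3.

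The scaffold gene SAV1 had a log2 fold change of 0.20 ± 0.067 (SE, adjusted p = 0.0791), which passed with the length trend removed (adjusted p = 0.0464) and without A375RIPK4.KO replicate 2 (adjusted p = 0.0435). LATS2, itself a known YAP target, was lower in all 3 knockout libraries, at 732, 677 and 727 normalized counts against 816, 834 and 764, but its log2 fold change of -0.18 ± 0.074 (SE) did not pass (adjusted p = 0.148). LATS1 overlapped between the groups. For the LATS adaptor MOB1A the log2 fold change was -0.0027 (95% interval -0.17 to 0.16). MOB1B, at 0.076 (95% interval -0.36 to 0.51), overlaps DCK on the same strand, so the counting of reads from the shared stretch is uncertain.

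The other upstream kinases, which can act on LATS beside STK3 and STK4, did not pass. MAP4K4 had 7483, 7062 and 7577 normalized counts in A375neg and 6846, 6749 and 6520 in A375RIPK4.KO, all lower, with a log2 fold change of -0.14 ± 0.058 (SE, adjusted p = 0.152). TAOK1 overlapped between the groups, with a log2 fold change of 0.049 ± 0.085 (SE).

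Angiomotins bind YAP and junction proteins. AMOT, on chromosome X from 112774877 to 112840831, was the regulator that fell most. It had 724, 662 and 683 normalized counts in A375neg and 339, 343 and 413 in A375RIPK4.KO. Every knockout library was below every control, with a log2 fold change of -0.92 ± 0.1 (SE, adjusted p = 0.000279), or 1.89-fold lower. AMOT is also among the genes that the study listed as lower from these libraries, so its direction is not independent evidence. Its paralogues AMOTL1 and AMOTL2 did not pass, at 0.078 ± 0.058 and 0.096 ± 0.059 (log2 fold change and SE, adjusted p = 0.41 and 0.317). AMOT was the rarest of the family per kb of exon, at 4.59% ± 0.205 (SD, n = 3) of the summed level in A375neg and 2.33% ± 0.177 (SD, n = 3) in A375RIPK4.KO, and the sum was 1768 ± 18.3 and 1838 ± 66.1 per kb (SD, n = 3).

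**Figure D3:**
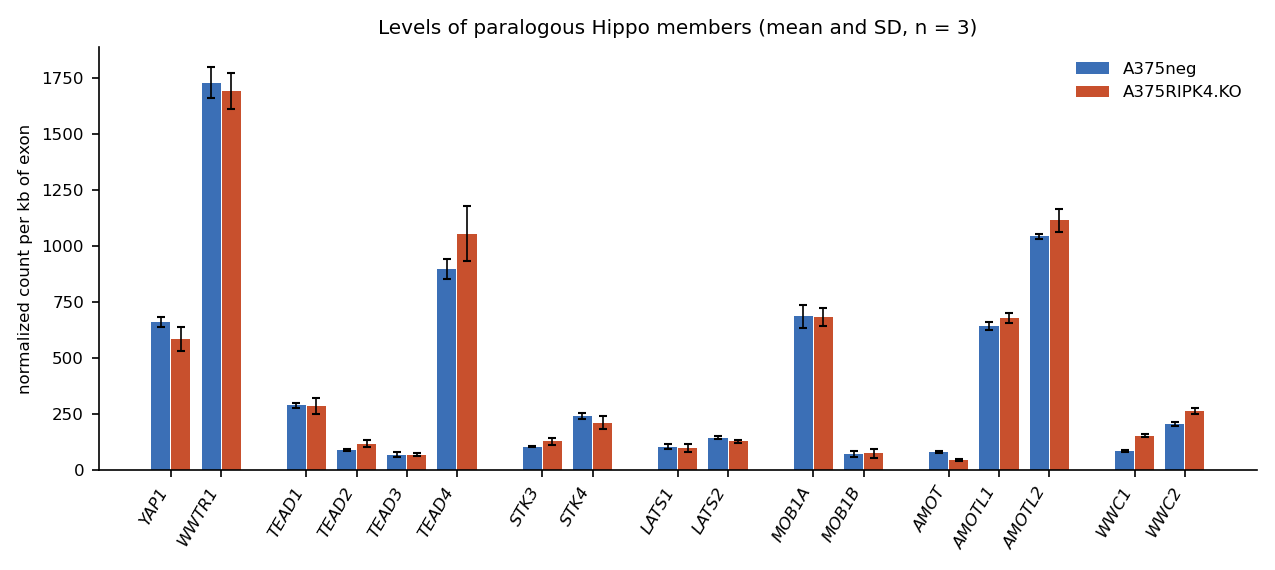
Normalized counts per kb of exon (bars, mean; error bars, SD, n = 3) for paralogous members in A375neg (blue) and A375RIPK4.KO (red). WWTR1, TEAD4, STK4, LATS2, MOB1A, AMOTL2 and WWC2 are the highest of their families in both groups, and AMOT is the lowest angiomotin. In mean normalized counts not divided by exon length, TEAD1, LATS1 and AMOTL1 stood above TEAD4, LATS2 and AMOTL2 in both groups.

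LIM domain adaptors of the Ajuba family bind and restrain LATS kinases. AJUBA, on chromosome 14 from 22971177 to 22982551, had 2780, 2630 and 2545 normalized counts in A375neg and 2254, 2225 and 2265 in A375RIPK4.KO. The knockout libraries were closely grouped below the controls, and the log2 fold change was -0.24 ± 0.059 (SE, adjusted p = 0.0235). The call was kept without A375neg replicate 3 or A375RIPK4.KO replicate 2 (adjusted p = 0.0443 and 0.0165) and lost without each of the other libraries (0.0549 to 0.109). LIMD1 did not pass, at 582, 591 and 582 normalized counts against 712, 626 and 756, with a log2 fold change of 0.25 ± 0.087 (SE, adjusted p = 0.081). It passed with the length trend removed (adjusted p = 0.0203) and without A375RIPK4.KO replicate 2 (0.0118).

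The giant cadherins FAT1 and DCHS1 are human counterparts of the fly receptor Fat and its ligand Dachsous. DCHS1 was rare, with 31, 22.1 and 33.2 normalized counts in A375neg and 70, 89.8 and 44.6 in A375RIPK4.KO. All 3 knockout libraries were higher but spread, with a log2 fold change of 1.24 ± 0.31 (SE, adjusted p = 0.026), and the call was kept without A375RIPK4.KO replicate 3 (0.0171) and lost without each other library (0.0543 to 0.101). FAT1 was abundant, at 7614, 7023 and 8158 normalized counts against 8818, 7068 and 9445. Replicate 2 of the knockout lay among the controls, and the log2 fold change of 0.15 ± 0.11 (SE, adjusted p = 0.387) became 0.27 without that library (adjusted p = 0.0152).

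**Figure D4:**
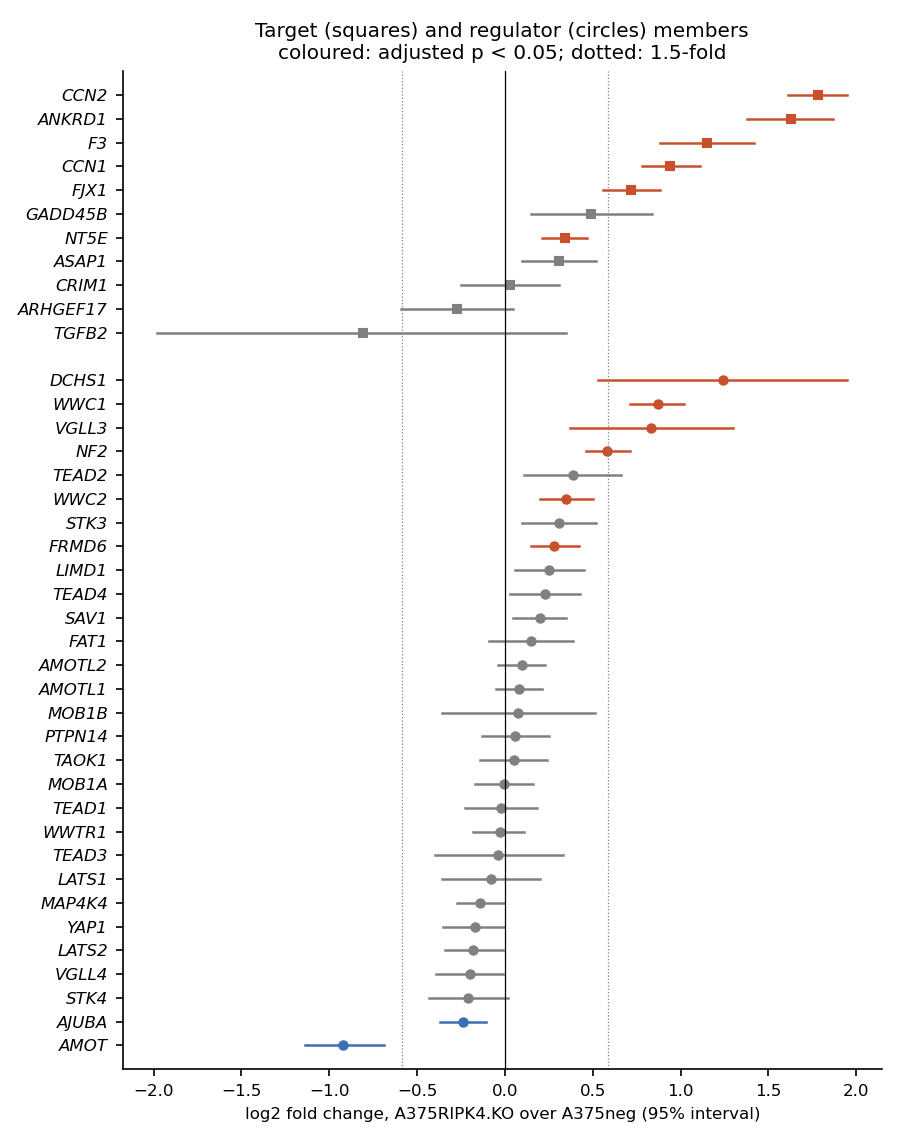
Log2 fold change of A375RIPK4.KO over A375neg for all 40 members, with 95% intervals, in which squares are targets and circles are regulators. Red marks called as higher, blue called as lower and grey not called, and dotted lines mark 1.5-fold. The 6 called targets and 6 regulators lie to the right, AMOT and AJUBA to the left, and the co-activators and the core kinase module are grey, with log2 fold changes from -0.21 to 0.31.

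Other genes of the pathway were listed from general knowledge. Of 49 further regulators 43 were listed and 40 tested, and 5 of these passed (12.5%, against 16.6% of all genes), 4 higher and 1 lower, with a median log2 fold change of 0.017. WTIP, the third gene of the Ajuba family, was the only one past 1.5-fold. It had 67, 61.7 and 37.9 normalized counts in A375neg and 169, 185 and 202 in A375RIPK4.KO, so its log2 fold change of 1.74 ± 0.23 (SE, adjusted p = 0.000888) was opposite in sign to that of AJUBA. MAP4K2, an upstream kinase gene, the polarity genes PALS1 and DLG1, and YWHAZ, whose product holds phosphorylated YAP in the cytoplasm, had log2 fold changes of 0.33, 0.26, 0.28 and -0.40 (adjusted p = 0.0217, 0.0111, 0.0179 and 0.00478). The calls were lost without A375neg replicate 2 for MAP4K2, PALS1 and DLG1 (adjusted p = 0.0917, 0.0594 and 0.0903), without A375RIPK4.KO replicate 3 for PALS1 and DLG1 (0.0509 and 0.0723), without A375neg replicate 3 for MAP4K2 (0.0864) and without A375neg replicate 1 for DLG1 (0.0708). None of 7 STRIPAK phosphatase genes and none of 5 RASSF genes passed. The count of 5 fell to 2 without A375neg replicate 2 and to 3 without A375RIPK4.KO replicate 3, and rose to 8 without A375RIPK4.KO replicate 2.

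Of 13 further genes described as YAP/TEAD targets, 5 passed (38.5%, against 16.6% of all genes tested), 3 higher and 2 lower (against 8.4% and 8.24% of all genes), with a median log2 fold change of 0.062. Without any overlap between the groups, 4 of the 13 were higher and 4 were lower, where 18.7% and 17.8% of all genes were. NUAK2, a kinase gene, rose by 1.18 ± 0.14 on the log2 scale (SE, adjusted p = 0.000459), RBMS3 by 0.68 ± 0.19 (SE, adjusted p = 0.0382, and 0.0576 to 0.114 without any single library except A375RIPK4.KO replicate 2) and the Wnt inhibitor gene DKK1 by 0.46 ± 0.068 (SE, adjusted p = 0.0016). In the opposite direction, AREG, which encodes the EGF receptor ligand amphiregulin, had 564, 593 and 618 normalized counts in A375neg and 110, 132 and 143 in A375RIPK4.KO. AREG was lower in each knockout library than in any control, with a log2 fold change of -2.20 ± 0.12 (SE, adjusted p = 5.85e-06), and IGFBP3 had one of -0.52 ± 0.061 (SE, adjusted p = 0.000464). Counted with the members, 9 of 24 target genes tested rose and 2 fell, where 8.4% and 8.24% of all genes did.

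**Figure D5:**
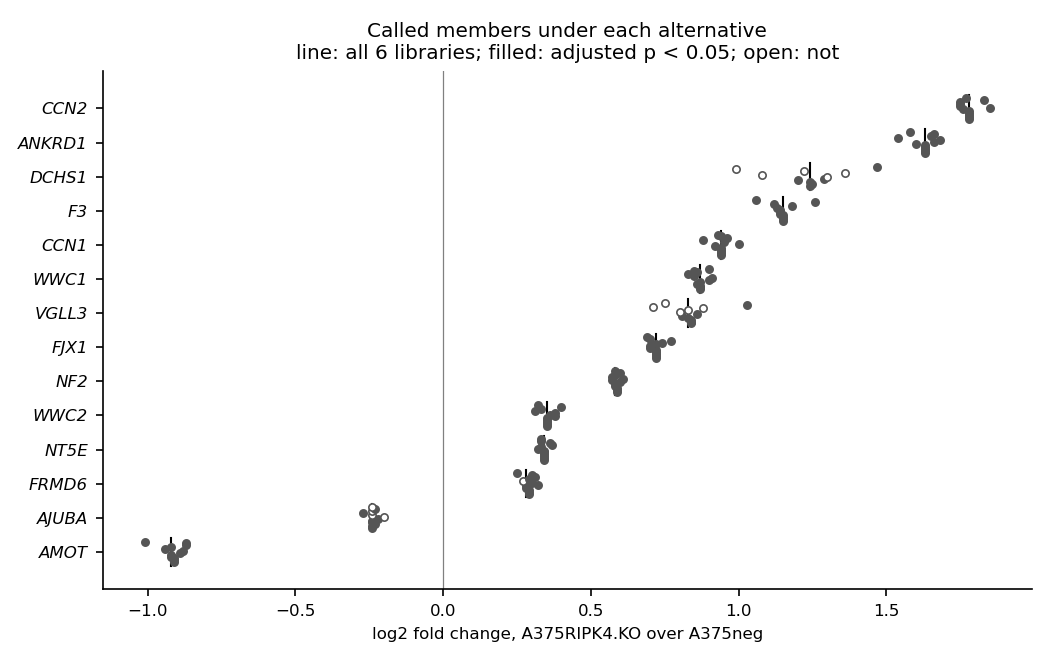
Log2 fold changes of the 14 called members under each alternative (circles) beside the value from all 6 libraries (line), with filled circles at an adjusted p under 0.05 and open circles above it. All 14 keep their direction, and open circles occur for VGLL3, DCHS1, AJUBA and FRMD6.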

How the data were processed

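An external provider made strand-specific libraries from poly(A) RNA and sequenced them in paired-end mode. The submitters' processing notes name cutadapt, FastQC, HISAT2, HTSeq and DESeq2, without versions, and the build GRCh38.p13. The authors deposited raw counts per gene and, as a signal, counts scaled by 1 size factor per library. The latter were not used, nor were the authors' own fold changes and p-values. The table lists genes with at least 4 counts in all.

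Raw counts were compared with edgeR 4.0.16 in R 4.3.3 (TMM, filterByExpr, quasi-likelihood test, no covariate, Benjamini-Hochberg adjustment over all genes tested). The SE is the size of the log2 fold change over the square root of F, and intervals are 95% and unadjusted. With 3 libraries against 3, an exact two-sided permutation test of a single gene cannot go below p = 0.1. The study describes the libraries as independent biological replicates, and the labels do not say how they were separated. Exon lengths are exon unions of GENCODE 29. Gene positions are those of RefSeq on GRCh38.p14. The exon that the table gives lay in the RefSeq gene for all 40 members, and for 95.13% of genes in the gene of GENCODE 29. All members were named by the rule, and genes of other lists where called. A result on 1 further gene is not reported here. Members and lists were chosen with earlier results of these data known. Alternatives were DESeq2 1.42.0, its size factors used in edgeR, the filter left out or replaced by a minimum mean of 50 counts, the replicate block, the length trend removed, the 1.5-fold rule, each library left out, the counts of gene copies added (CRIM1) and feedback genes counted as targets. The steps were tested on simulated counts that held no trend on gene length. The limits of this test were loosened after the first limits set for power were not met. Figures were drawn with matplotlib 3.10.9.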

Additional observations from a re-analysis of the deposited data

How the results depend on the processing

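Over 12 alternative fits per member (11 for the rare DCHS1 and TGFB2, which a mean of at least 50 counts removed), the 14 called members kept their direction, and 10 were called in every fit. With a fold change of at least 1.5 required, the calls were 1306 over the whole table, 4 of the regulators, 1 of the other regulators and 3 of the other targets. With 1 library left out, 1526 to 2952 genes were called over the whole table, 4 to 10 regulators, 6 to 8 targets, 2 to 8 other regulators and 4 to 7 other targets; the whole-table count was lowest without A375neg replicate 2, and 1584 without A375neg replicate 1. Counting the feedback genes LATS2, AMOTL2, PTPN14 and AJUBA as targets gave 7 calls among 25 regulators and 7 among 15 targets. In either block 6 were higher and 1 was lower.

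Members with log2 fold changes near 0 turned sign. TEAD1 was 0.0064 with the length trend removed. MOB1A was 0.00011 with DESeq2's size factors, 0.00012 with DESeq2, 0.00068 without the filter and 0.014 with the length trend removed. With 1 library left out, the log2 fold change ran from -0.067 to 0.003 for WWTR1, -0.083 to 0.082 for TEAD1, -0.12 to 0.11 for TEAD3, -0.16 to 0.051 for LATS1, -0.048 to 0.061 for MOB1A, -0.051 to 0.28 for MOB1B, -0.012 to 0.12 for TAOK1, -0.0018 to 0.15 for PTPN14 and -0.079 to 0.18 for CRIM1. The cause was not tested.

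Deviations of same-numbered libraries from their group means had correlations of 0.08, 0.04 and -0.01 over all genes tested, against -0.1 to 0.07 for other pairs. Such correlations cannot tell whether the libraries were paired in part of the genes. With the replicate block, 2549 genes, 8 regulators, 7 targets, 6 other regulators and 6 other targets were called and RIPK4 was at -2.69; ASAP1 (adjusted p = 0.0138) was the added target. Depth limits TGFB2 and DCHS1, which had under 100 normalized counts in every library.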
